A study of Mus musculus with 46 samples.

Results

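The 10 genes described here encode enzymes of the mouse UDP-glucuronosyltransferase (UGT) superfamily, out of 21631 protein-coding genes in the gene table. They were taken by name, and 8 lie on chromosome 5 (Ugt2b34, Ugt2b1, Ugt2b35, Ugt2b36, Ugt2b5, Ugt2b37, Ugt2a3 and Ugt2b38) and 2 on chromosome 15 (Ugt3a1 and Ugt3a2). For each gene, the base pairs (bp) covered by ChIP-seq peaks were counted in a window made of the gene body and 2500 bp on each side. The livers came from female FVB mice aged 11 weeks, kept on standard chow. Wild-type (WT) mice were compared with mice labelled PA, which the labels describe as hypomorphic Pcca-/- (A138T). The Pcca product is a subunit of the mitochondrial enzyme that removes propionyl-CoA. Chromatin was prepared by native MNase digestion of frozen liver pieces, and 38 libraries had a peak list. Antibodies to H3K9ac, H3K27ac, H4K16ac and butyrylated H4K16 (H4K16bu) were used on chromatin preparations labelled A. Antibodies to H4K5ac, propionylated H4K5 (H4K5pr), H4K12ac, H4K12pr and H4K16pr (the Thermo antibody) were used on preparations labelled B. For these 9 antibodies there were 36 libraries, 2 per genotype and antibody. A further H4K16pr antibody, made in-house, was used on WT preparations 1B and 2B alone. Averaging over antibodies gave 4 values per genotype, for preparations 1A, 2A, 1B and 2B. Whether 1A and 1B came from 1 liver is not stated in the labels, so the 4 preparations may stand for fewer animals.

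UGT enzymes sit in the membrane of the endoplasmic reticulum and transfer a sugar from a UDP-sugar to small lipophilic molecules, which makes them water-soluble for excretion in bile and urine. Enzymes of the Ugt2 family use UDP-glucuronic acid and act in liver on steroids, bile acids, fatty acids and drugs. The Ugt2b genes arose by repeated duplication and lie side by side. Enzymes of the Ugt3a family use other sugars: in human, UGT3A1 transfers N-acetylglucosamine, and UGT3A2 transfers glucose or xylose. Acetyl, propionyl and butyryl groups on the tails of histones H3 and H4 mark active promoters and enhancers, and the acyl groups come from the corresponding acyl-CoA molecules.

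The windows of the 10 genes did not overlap one another. In the order of chromosome 5 (GRCm38), the gene bodies were Ugt2b34 at chr5:86889770-86906937, Ugt2b1 at chr5:86916639-86926503, Ugt2b35 at chr5:87000860-87013274 and Ugt2b36 at chr5:87065927-87092555. They were followed by Ugt2b5 at chr5:87124946-87140340, Ugt2b37 at chr5:87240492-87254788, Ugt2a3 at chr5:87324972-87337195 and Ugt2b38 at chr5:87409939-87424203. Ugt2b35 is transcribed from the plus strand and the other 7 from the minus strand. On chromosome 15, Ugt3a1 lies at chr15:9279822-9315038 on the plus strand and Ugt3a2 at chr15:9335551-9370955. The promoter table used held starts for all except Ugt3a2, for which the lower-coordinate gene end, the one with more peak coverage, served as the start.

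The 250 bases before the transcription start are shown for 4 genes, from RefSeq on GRCm38.p6, each on its own strand. The first 3 are close copies of one another that differed widely in peak coverage, and Ugt3a1 is the gene whose start region differed most between genotypes.
Ugt2b5: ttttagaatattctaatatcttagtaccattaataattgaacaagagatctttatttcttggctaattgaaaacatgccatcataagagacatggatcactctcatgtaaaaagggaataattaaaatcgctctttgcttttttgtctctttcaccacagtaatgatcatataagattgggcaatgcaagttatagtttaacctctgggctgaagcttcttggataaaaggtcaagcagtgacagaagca
Ugt2b37: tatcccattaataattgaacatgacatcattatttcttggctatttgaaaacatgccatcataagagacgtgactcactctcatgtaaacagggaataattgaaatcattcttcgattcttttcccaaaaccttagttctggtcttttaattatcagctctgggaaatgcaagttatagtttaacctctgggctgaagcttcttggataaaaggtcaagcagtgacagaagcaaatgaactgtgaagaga
Ugt2b38: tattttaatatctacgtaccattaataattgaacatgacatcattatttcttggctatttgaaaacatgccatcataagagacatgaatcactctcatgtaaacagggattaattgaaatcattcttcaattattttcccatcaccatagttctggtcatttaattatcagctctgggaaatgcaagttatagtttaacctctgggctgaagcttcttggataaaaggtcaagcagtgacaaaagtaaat
Ugt3a1: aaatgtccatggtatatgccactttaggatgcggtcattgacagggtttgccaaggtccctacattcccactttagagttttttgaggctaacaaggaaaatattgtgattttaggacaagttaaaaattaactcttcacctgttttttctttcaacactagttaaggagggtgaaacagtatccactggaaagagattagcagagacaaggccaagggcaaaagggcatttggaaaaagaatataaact
The first 3 lie on the minus strand at chr5:87140341-87140590, chr5:87254789-87255038 and chr5:87424204-87424453, and the Ugt3a1 stretch on the plus strand at chr15:9279579-9279828. Ugt2b37 and Ugt2b38 shared 224 of 236 aligned bases (94.9%), Ugt2b5 and Ugt2b38 shared 212 of 240 (88.3%), and Ugt2b5 and Ugt2b37 shared 199 of 226 (88.1%). The other 33 pairs of member promoters shared 65.1 to 82.5% by the same gapped alignment.

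Coverage of these promoters did not follow their likeness. All 250 bases upstream of Ugt2b37 were inside a peak in 17 of 18 WT and 17 of 18 PA libraries, and those of Ugt2b5 in 16 of 18 WT and 18 of 18 PA libraries. The 250 bases upstream of Ugt2b38 were inside a peak in 1 of 18 WT and 0 of 18 PA libraries. The upstream bases of Ugt2b1, Ugt2b35, Ugt2b36, Ugt2a3 and Ugt3a1 were inside a peak in all 36 libraries, and those of Ugt2b34 in 16 WT and 18 PA libraries. Reads from near-identical copies cannot always be assigned to 1 copy, and no source used here says how such reads were treated. The split of signal among Ugt2b5, Ugt2b37 and Ugt2b38 is therefore uncertain.

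Relative to window length, the peaks took up very different shares of the members. Over the 8 preparations, Ugt2b1, whose rat namesake conjugates bisphenol A, had the highest share, with 59.3% ± 4.26 of its window covered (SD, n = 8). Ugt2b35 followed with 44.6% ± 3.96 and Ugt2a3, whose human counterpart conjugates bile acids, with 42.7% ± 2.90. These shares put Ugt2b1 above Ugt2b35 in 8 of 8 preparations without overlap, while Ugt2b35 and Ugt2a3 overlapped. Ugt2b34 (36.3% ± 6.79), Ugt2b5 (33.9% ± 3.40) and Ugt2b36 (33.2% ± 3.05) followed with overlapping ranges. Ugt2b37 had 22.5% ± 4.60, Ugt3a1 13.1% ± 2.93 and Ugt3a2 10.1% ± 0.954, each overlapping its neighbour in this order. Ugt2b38 was last with 1.57% ± 1.23, below Ugt3a2 in 8 of 8 preparations.

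At 9 members a peak was listed in all 36 libraries, and at Ugt2b38 in 8 of 18 WT and 6 of 18 PA libraries. Merged over the 38 libraries, the peaks formed 51 separate regions in the 10 windows. Each of the other 9 genes had 1 wide region over its start that was present in all 36 libraries, and 32 of the 51 regions were seen in 3 or fewer of the 36. For Ugt3a2 the start was the gene end chosen for its higher peak coverage, so a region there carries no information about its start. The start region ran far into the genes of the Ugt2 family: from the upstream edge of the window to 11785 bp past the start in Ugt2b36, 10287 bp in Ugt2b1, 10157 bp in Ugt2b34, 8609 bp in Ugt2a3, 7558 bp in Ugt2b35 and 7519 bp in Ugt2b5. It ended at 3802 bp in Ugt2b37, 3913 bp in Ugt3a1 and 3500 bp in Ugt3a2. These extents join the peaks of all libraries. All 18 WT libraries shared 20.7 to 34.7% of its bases in Ugt2b35, Ugt2b1, Ugt2b36 and Ugt2a3, and 0% in Ugt2b34 and Ugt2b5. All 18 PA libraries shared 17.8% in Ugt2b34 and 15.0% in Ugt2b5. In Ugt2b38 the widest region lay from 2500 to 607 bp before the start and did not reach it.

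**Figure D1:**
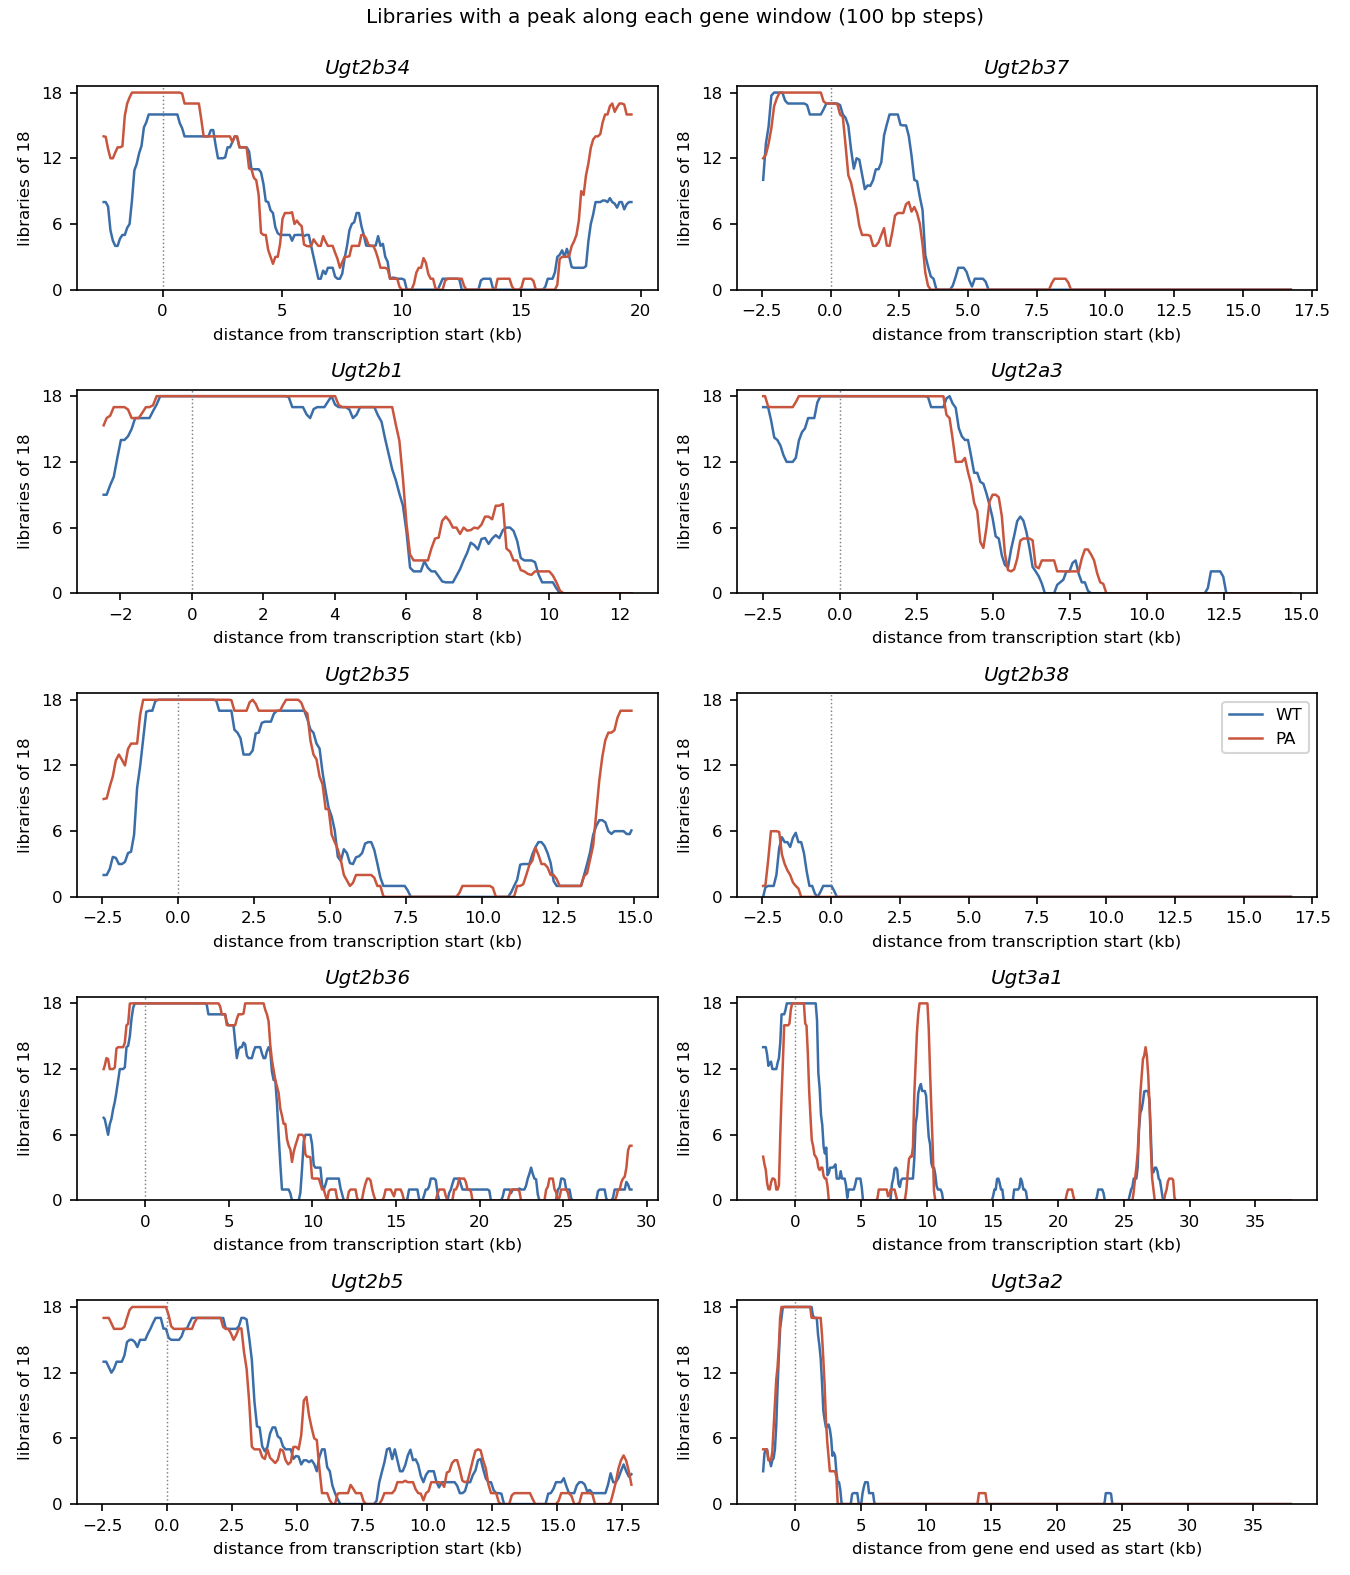
Number of WT (blue) and PA (red) libraries, of 18 each, with a peak at each position of the 10 gene windows, against distance from the start in kb, in steps of 100 bp; the dotted line marks the start. The start of 9 genes is covered in 15 or more libraries of each genotype, though that of Ugt3a2 was chosen as the gene end with more peak coverage. Ugt2b38 is nearly empty, and the PA curve of Ugt3a1 is narrower than the WT curve around the start.

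Between genotypes, peaks in PA liver covered more of most genes, and the UGT genes shared this only in part. With values averaged over antibodies, limma called 3423 of 16082 genes higher in PA (21.3%) and 147 lower (0.914%) at a Benjamini-Hochberg adjusted p under 0.05, and the median gene gained 495 bp. Of the 10 members, 1 was called higher (Ugt2b34) and 0 lower, and 4 had an unadjusted limma p under 0.05, against 6283 of the 16082 genes. The median member gained 176 bp, with 6 members higher and 4 lower in mean. When the covered length was quantile normalized or scaled to the same genome-wide length in each library, the split over all genes became 891 higher and 720 lower, or 947 higher and 1014 lower. Relative to the unscaled values, in which the median gene was 0.243 higher in PA on the log2 scale, both centre the genes near no change. Under both, the members called were Ugt3a1 and Ugt2b37, both lower, and the differences of Ugt2b1, Ugt2b35, Ugt2b36, Ugt2b5 and Ugt2a3 turned negative. All differences given here are on the unscaled length unless stated.

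Ugt2b34 was the member called higher in PA. Its window held 7510, 6446, 6763 and 7116 bp of peaks in WT preparations 1A, 2A, 1B and 2B, and 9154, 11084, 8201 and 8098 bp in the PA preparations in the same order. Every PA value lay above every WT value, as for 21% of all genes tested. WT averaged 6959 ± 458 bp and PA 9134 ± 1384 bp (SD, n = 4), a difference of 2176 bp (SE 594, limma adjusted p = 0.0307). With the gene body alone, without the 2500 bp on each side, the difference was 327 bp and did not pass (adjusted p = 0.709). At the far end of the gene, a region from 16040 to 19667 bp past the start had a peak in 11 of 18 WT and 18 of 18 PA libraries. It held 172, 755, 1466 and 1453 bp in the WT preparations and 1836, 2351, 1838 and 1942 bp in the PA preparations, with no overlap. The share of regions genome-wide with this order was not computed, and for whole gene windows it was 21%. Upstream, from 2000 to 1500 bp before the start, 5 WT and 17 PA libraries had a peak. The call was lost with numbered preparations as blocks (adjusted p = 0.0674), with A and B averaged (0.0572) and without 6 of the 8 preparations one at a time (0.0511 to 0.0917), each time with the PA mean above the WT mean. It was also lost with equal numbers of peaks (0.0720) and without H4K16ac (0.0540). Under quantile normalization the difference was 776 bp (adjusted p = 0.401) and scaled to equal covered length 868 bp (0.412).

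**Figure D2:**
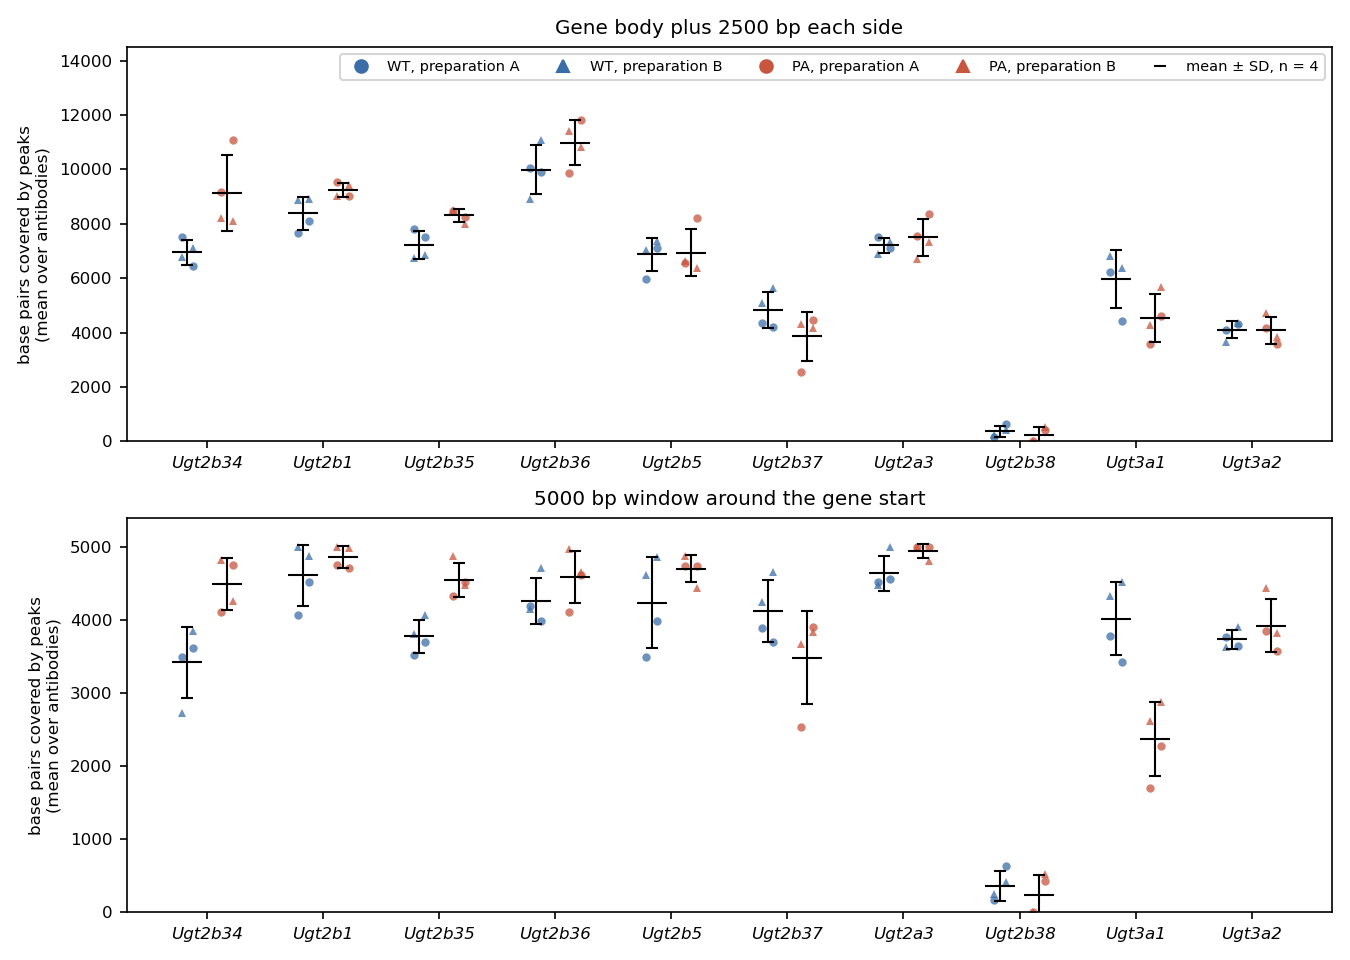
Base pairs covered by peaks at each member, as the mean over antibodies, for each WT (blue) and PA (red) preparation (circles A, triangles B), with bars for mean ± SD of 4 preparations; the upper panel uses the gene window and the lower panel the 5000 bp around the start. Ugt3a1 in the lower panel has all PA preparations (1706 to 2885 bp) below all WT preparations (3435 to 4528 bp), and Ugt2b34 and Ugt2b35 have the reverse order in both panels.

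Ugt3a1, in contrast, had narrower peaks at its start in PA. In the 5000 bp centred on the start, the WT preparations 1A, 2A, 1B and 2B held 3783, 3435, 4332 and 4528 bp of peaks and the PA preparations 1706, 2278, 2626 and 2885 bp. All PA values lay below all WT values, an order seen for 0.485% of the 14647 genes tested in this window, while PA lay above WT throughout for 13.4%. WT averaged 4019 ± 501 bp and PA 2374 ± 510 bp (SD, n = 4), so PA coverage was 0.591 of WT. The difference was -1646 bp (SE 178, limma adjusted p = 0.00560), and 9 of the 14647 genes had a lower one. In this window 36 genes were called lower (0.246%) and 647 higher (4.42%), with a median gene change of 249 bp. The split became 118 higher and 74 lower under quantile normalization and 320 higher and 1887 lower after scaling to equal covered length. Leaving out 1 preparation moved the higher count to between 123 and 1087, and with A and B averaged it was 0. Of the members, Ugt3a1 was called lower and Ugt2b35 higher. After scaling to equal covered length, 5 members were called lower and 0 higher.

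Within preparation A the Ugt3a1 start window differed by -1617 bp and within preparation B by -1674 bp, but neither 2-against-2 fit reached the threshold (adjusted p = 0.160 and 0.317). These 2 fits called 0 of 14647 genes, with 3135 and 1742 genes at an unadjusted limma p under 0.05. The call held without each preparation in turn (adjusted p = 0.0149 to 0.0279) and under quantile normalization (-1954 bp, adjusted p = 0.00244). With numbered preparations as blocks the adjusted p was 0.0431. It was lost with A and B of the same number averaged (adjusted p = 0.0959), the fit that treats them as 1 liver. Over the whole gene window the difference was -1421 bp (SE 507) and did not pass (adjusted p = 0.0729), and the preparation values overlapped, with WT at 6228, 4414, 6815 and 6393 bp and PA at 3565, 4625, 4298 and 5678 bp.

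Over all libraries together, the narrowing at Ugt3a1 was on both sides of the start, though not for every antibody. The peak over the start was 2484 to 7317 bp wide in the 18 WT libraries (median 5124) and 1046 to 3559 bp wide in the 18 PA libraries (median 2292). Averaged over the antibodies of a preparation, the width was 4590 ± 1015 bp for the 4 WT and 2242 ± 467 bp for the 4 PA preparations (SD). The median WT peak began 3173 bp before the start and ended 1896 bp after it, and the median PA peak began 1090 bp before and ended 1094 bp after. From 1500 to 1000 bp before the start, 12 of 18 WT and 1 of 18 PA libraries were covered throughout. From 1000 to 1500 bp after it, 18 of 18 WT and 4 of 18 PA libraries were. The first 500 bp after the start were covered throughout in all 36 libraries, so the centre itself was marked in both genotypes. For 8 of the 9 antibodies both PA peaks were narrower than both WT peaks, the exception being H4K16ac, with 2837 and 2484 bp in WT and 2620 and 1928 bp in PA. The upstream edges of WT and PA overlapped for H4K16ac and H4K16bu. For H4K16bu they lay at -1112 and -1123 bp in WT and -914 and -1204 bp in PA. These are edges of the peak over the start alone. Both WT H4K16bu libraries had a separate upstream peak (-3562 to -2078 and -2692 to -1840 bp), and neither PA one did. Some libraries of other antibodies also had one, such as WT 1B H4K12ac (-4271 to -2175 bp) and PA 1B H4K5ac (-2877 to -2378 bp). How far the narrowing reflects a peak split into separate ones was not tested. The downstream edges overlapped for H4K5ac and H4K5pr. For H4K5ac they lay at 2381 and 2159 bp in WT and 1799 and 2463 bp in PA. In the start window both PA libraries lay below both WT libraries for at least 8 antibodies in 0.13% of genes, 19 in number.

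**Figure D3:**
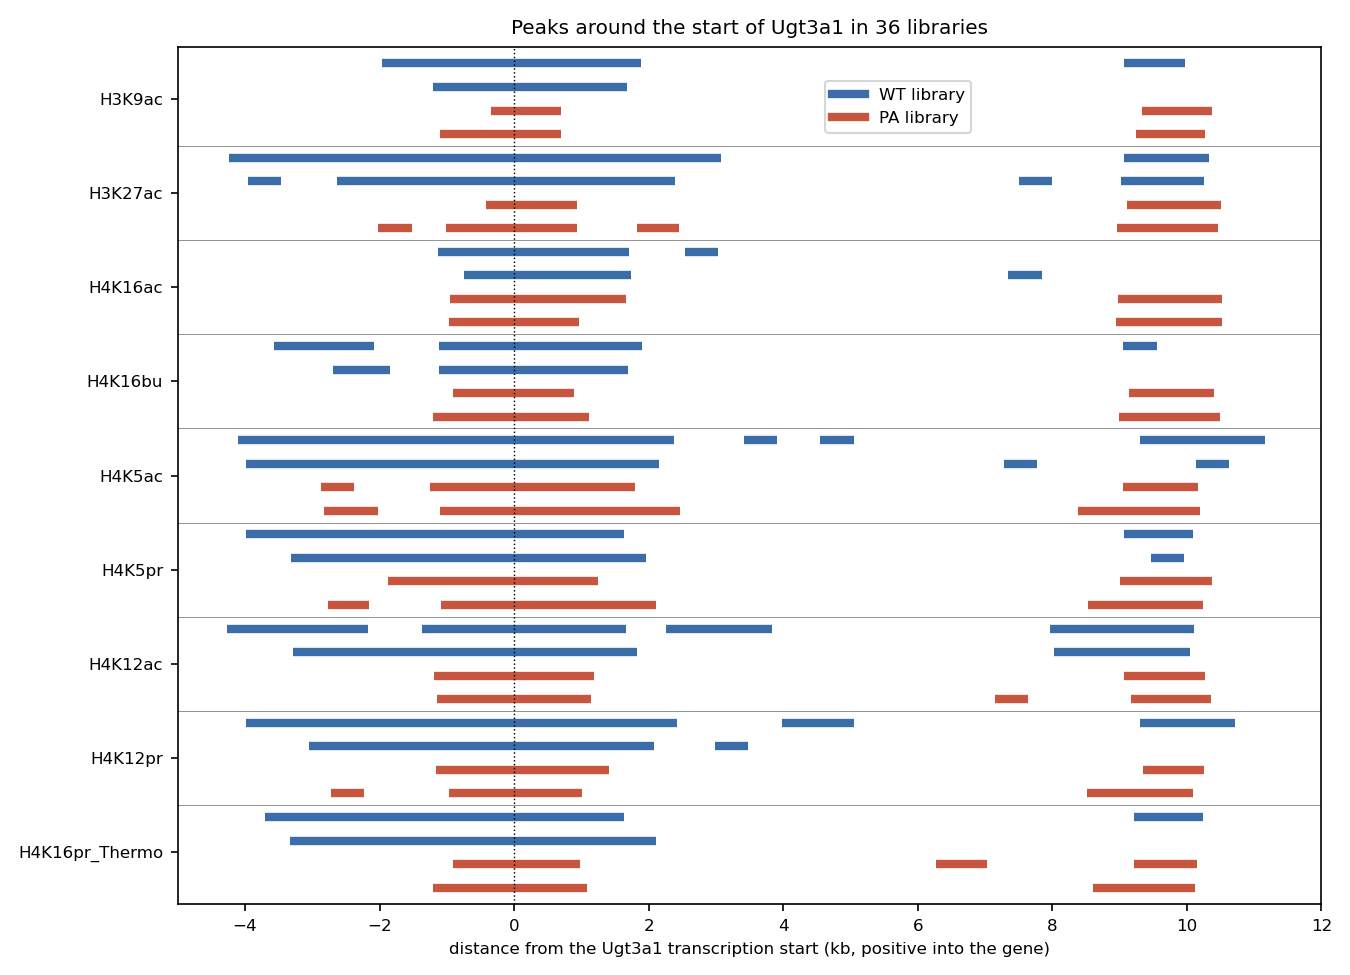
Peaks of each of the 36 libraries around the Ugt3a1 start, against distance in kb (positive into the gene), grouped by antibody with WT libraries (blue) above PA libraries (red). The peak over the start is shorter in PA for 8 of the 9 antibodies, and a second region, between 7144 and 11164 bp, has a peak in all 18 PA libraries.

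A second region in the Ugt3a1 body lay from 7144 to 11164 bp past the start, at chr15:9286973-9290993. It had a peak in 13 of 18 WT and 18 of 18 PA libraries. The WT preparations held 668, 558, 1495 and 706 bp there, and the PA preparations 1312, 1405, 1108 and 1666 bp. The PA mean was 1373 ± 231 bp and the WT mean 857 ± 430 bp (SD, n = 4), but WT 1B exceeded 3 of the 4 PA values, so the groups overlapped. The third region, from 25445 to 27995 bp, was found in 12 WT and 14 PA libraries. The neighbouring gene Ugt3a2 was not called at its start on the unscaled length. Its start windows held 3769, 3652, 3627 and 3906 bp in WT and 3856, 3579, 4445 and 3829 bp in PA, and the groups overlapped (difference 189 bp, SE 174, limma adjusted p = 0.470).

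Ugt2b35 had more coverage around its start in PA, a direction that turned to -150 bp (adjusted p = 0.652) after scaling to equal covered length. Its start window held 3531, 3709, 3814 and 4074 bp in WT and 4328, 4529, 4875 and 4478 bp in PA. All PA values lay above all WT values, as for 13.4% of the genes tested in this window. The difference was 771 bp (SE 126, limma adjusted p = 0.0217), and no WT library but 8 of 18 PA libraries filled the whole 5000 bp. From 2000 to 1500 bp before the start, 5 WT and 15 PA libraries had a peak. Across the far end of the gene, the region from 10960 to 14914 bp had a peak in 11 WT and 18 PA libraries, yet its preparation values overlapped (871 ± 700 bp in WT, 1278 ± 319 bp in PA). Over the whole window the difference of 1083 bp did not pass (adjusted p = 0.0654). The start window call was lost as a block fit (adjusted p = 0.0748), with A and B averaged (0.102), under quantile normalization (433 bp, 0.108), without H4K16ac (0.0727) and without 6 of the 8 preparations in turn (0.0601 to 0.0706).

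Ugt2b37 pointed the other way without passing the test on the unscaled length. Its window held 4336, 4223, 5101 and 5623 bp in WT and 2539, 4450, 4302 and 4169 bp in PA, so PA 2A and PA 1B fell among the WT values. The difference was -956 bp (SE 419, limma adjusted p = 0.125), and 307 of 16082 genes had a lower one. From 1000 to 500 bp before the start, 16 WT and 18 PA libraries were covered throughout. Downstream, from 2000 to 2500 bp past the start, 15 WT and 4 PA libraries were covered throughout. Without PA 2A the difference was -1372 bp (adjusted p = 0.0345), and without PA 1A it was -608 bp (adjusted p = 0.305). The Ugt2b37 start window was called lower after scaling to equal covered length (-1457 bp, limma adjusted p = 0.0140).

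The other 5 members were not called in either window. Ugt2b1 held 7668 to 8911 bp in the WT preparations and 9010 to 9536 bp in the PA preparations, without overlap (860 bp, SE 419, limma adjusted p = 0.160). Together with Ugt2b34 and Ugt2b35 that made 3 of 10 members with all PA above all WT values, against 21% of genes, and 0 of 10 with all PA below, against 0.815%. Ugt2b36, with the longest Ugt2 window, held 9988 ± 891 bp in WT and 10988 ± 842 bp in PA, with overlap (adjusted p = 0.269). Ugt2b5 held 6874 ± 610 and 6940 ± 865 bp (adjusted p = 0.938), and its direction reversed under several settings. Ugt2a3 held 7212 ± 267 and 7497 ± 676 bp (adjusted p = 0.606). The start window was already full at 5000 bp in 12 of 18 WT libraries for Ugt2a3, 10 for Ugt2b5 and 9 for Ugt2b1, which limited the increase that could be measured there. Ugt2b38 held 167, 635, 254 and 410 bp in WT and 0, 426, 0 and 527 bp in PA (adjusted p = 0.553).

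**Figure D4:**
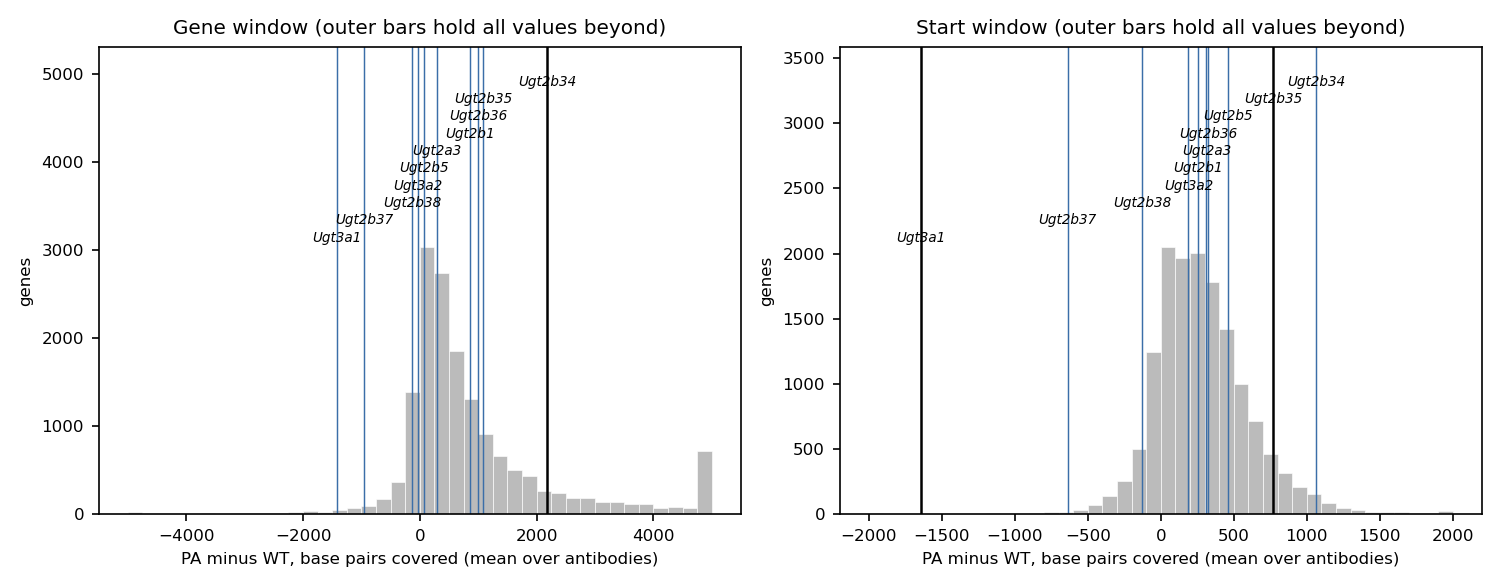
Number of genes (grey bars) by PA minus WT covered base pairs, as the mean over antibodies, for the gene window (left) and the 5000 bp start window (right). Lines mark the 10 members, in black where the adjusted p was under 0.05: Ugt2b34 at 2176 bp on the left, and Ugt3a1 at -1646 bp and Ugt2b35 at 771 bp on the right; the outermost bars hold all values beyond the axis range.

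Within single antibodies, with 2 libraries against 2, limma called no member. It called 0% of genes for H3K9ac, H3K27ac, H4K16ac, H4K16bu, H4K5ac, H4K5pr, H4K12pr and H4K16pr, and 0.00679% (1 gene) for H4K12ac. Unadjusted p-values under 0.05 were obtained for 1379 (H4K12pr) to 4031 (H4K16ac) genes. With a spread shared between antibodies, the fit called 3636 of 13210 genes higher and 13 lower for H4K16ac. That fit counted libraries of the same preparation as independent, which can make its p-values too small. Of the 9 members tested there, 3 were among the higher ones, a share close to that of all genes. For the other 8 antibodies this fit called no member. The pattern over antibodies differed by gene. Ugt3a1 start coverage was lower in PA in mean for 9 of 9 antibodies, most for H3K27ac (5000 and 4887 bp in WT, 1355 and 3073 bp in PA) and least for H4K16ac (2837 and 2484, then 2620 and 1928 bp). Ugt2b34 was higher in mean for 7 of 9, with all PA above all WT libraries for 5. Its H4K16ac window held 3758 and 500 bp in WT and 5933 and 7763 bp in PA. Its H3K27ac window held 10023 and 11705 bp in WT and 14527 and 15531 bp in PA, while the H4K12ac means differed by -1 bp. Ugt2b35 was higher in mean for 8 of 9 and Ugt2b37 lower for 8 of 9. The median gene was also higher in PA for each of the 9 antibodies, by 174 bp (H3K9ac) to 1518 bp (H4K16ac). The share of all genes with such counts in the gene window was not computed.

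H4K16ac was the antibody in which all 10 members were higher in PA in mean. Summed over the members, the mean WT length was 38762 bp and the mean PA length 57580 bp. In the WT H4K16ac libraries the peaks covered 74.8 and 47.8 Mb of the genome, and in the PA ones 116 and 105 Mb, and the part of this in the members' difference was not tested. The median member difference for H4K16ac was 1297 bp and the median gene difference 1518 bp. For H3K9ac, 3 members were higher and 7 lower, and for H4K12pr 2 were higher and 7 lower. Leaving H4K16ac out of the average, the Ugt3a1 start window differed by -1851 bp (adjusted p = 0.0269).

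**Figure D5:**
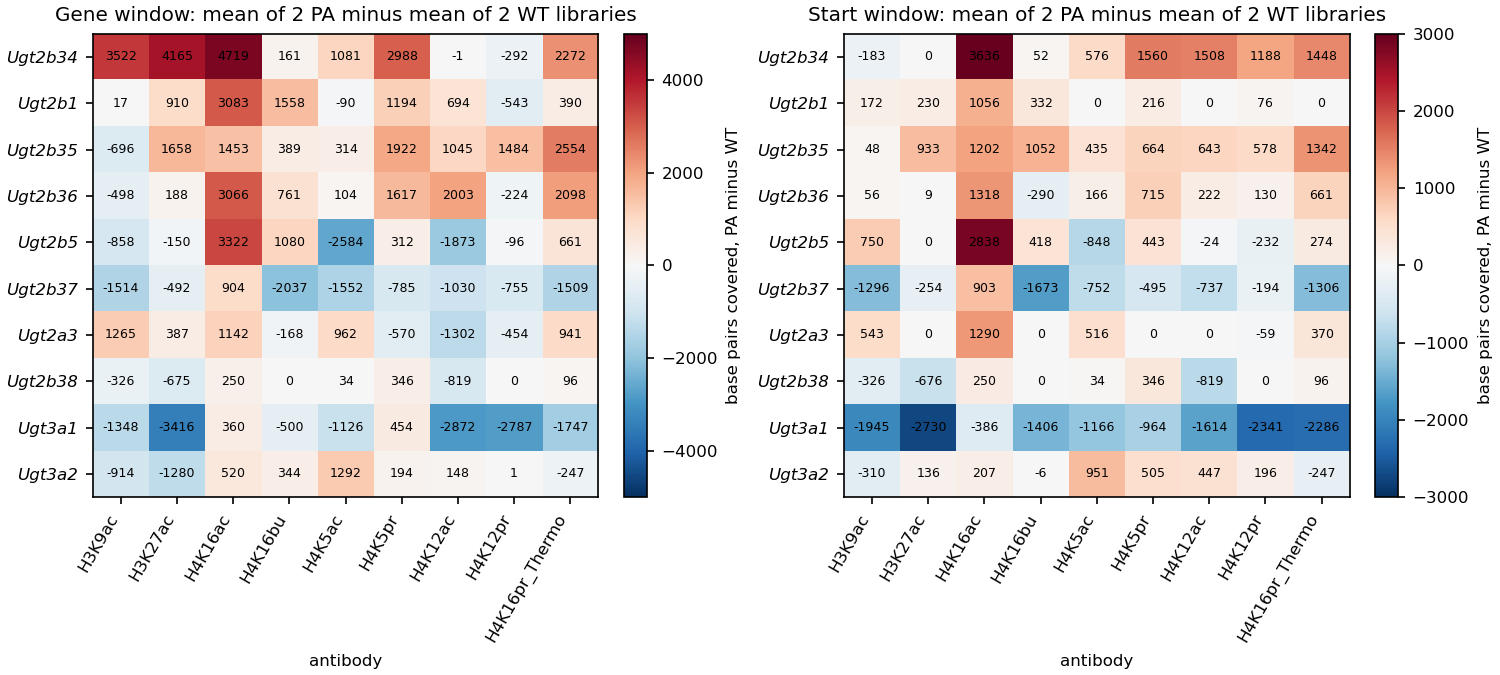
Difference in covered base pairs, mean of 2 PA minus mean of 2 WT libraries, for each member (rows) and antibody (columns), in the gene window (left) and the start window (right); red is higher and blue lower in PA. In the start window Ugt3a1 is below 0 for 9 of 9 antibodies and Ugt2b35 above 0 for 9 of 9, and the H4K16ac column is above 0 for 9 members, all except Ugt3a1.

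Acyl and acetyl marks on the same lysine were compared in the same preparations. H4K5pr minus H4K5ac was called for 0 of 10 members, against 1.42% of genes higher and 1.29% lower, and the smallest member adjusted p was 0.281. H4K12pr minus H4K12ac was also called for 0 members, against 0.211% higher and 0.0198% lower. Here Ugt2b34 had 10715 ± 604 bp of H4K12pr and 7426 ± 1684 bp of H4K12ac (SD, n = 4), propionyl above acetyl in 4 of 4 preparations, with a limma adjusted p of 0.186. Ugt2b36 had 12882 ± 767 and 9832 ± 1654 bp, again in 4 of 4 (adjusted p = 0.219). H4K16bu minus H4K16ac was called for 0 members, against 0.00704% higher and 0% lower. All 10 members had more H4K16bu than H4K16ac in mean, by a median of 1327 bp, against 450 bp for the median gene. Summed over the members, H4K16bu and H4K16ac covered 61020 and 38762 bp in WT, but 62608 and 57580 bp in PA. In PA Ugt2b1 had the reverse order (9705 and 10230 bp) and Ugt2b38 was equal (250 and 250 bp). The WT H4K16ac libraries covered 74.8 and 47.8 Mb of the genome, and the WT H4K16bu libraries 105.6 and 98.45 Mb. Under quantile normalization the median gene was at -153 bp. With the preparation as a block, the counts of genes higher and lower became 317 and 379 at H4K5, 225 and 16 at H4K12, and 0 and 0 at H4K16, and still 0 members passed. The blocked adjusted p at H4K12 was 0.0557 for Ugt2b34 and 0.0796 for Ugt2b36. The 2 marks of a preparation deviated together from their group means across genes (r = 0.483 to 0.647), except for H4K16 in PA (r = -0.378).

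The 2 antibodies to H4K16pr gave different lengths from the same WT chromatin. In WT 1B, the Thermo and in-house libraries covered 8291 and 5968 bp of Ugt2b1, and 5106 and 815 bp of Ugt2b34. In WT 2B they covered 8557 and 0 bp of Ugt2b1, and 6521 and 819 bp of Ugt2b34. The in-house library of WT 2B had no peak at Ugt2b1, Ugt2b36, Ugt2b5, Ugt2b37 and Ugt2b38, and it held 16368 peaks in all, the fewest of the 38.

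Genes around the glucuronidation pathway were read with the same fit. Of 11 other UGT genes (the Ugt1a genes, Ugt2a1, Ugt2a2 and Ugt8a), 0 were called in the gene window and 0 of the 8 tested in the start window. Their median difference was -65.4 bp, against 495 bp for all genes. In the gene window the smallest p-values were those of Ugt2a1, where WT averaged 877 ± 223 bp and PA 670 ± 343 bp (limma adjusted p = 0.374), and of Ugt2a2 (limma adjusted p = 0.374). In the start window the smallest was that of Ugt1a9, at -376 bp (limma adjusted p = 0.167). The windows of these genes overlap, as do those of the Ugt1a genes. Of 4 genes of cofactor supply and deconjugation, 2 were called higher. Ugdh, which makes UDP-glucuronic acid, went from 13268 ± 1288 to 18472 ± 941 bp (difference 5204 bp, SE 858, limma adjusted p = 0.00466). Slc35d1, which carries UDP-glucuronic acid into the endoplasmic reticulum, went from 5161 ± 836 to 7659 ± 1235 bp (adjusted p = 0.0291). In the start window neither passed (limma adjusted p = 0.0830 for Ugdh and 0.124 for Slc35d1).

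Of the 3 exporters of glucuronides, Abcc4 was called higher. Its window rose from 6397 ± 1858 bp in WT to 15524 ± 2384 bp in PA (SD, n = 4), a difference of 9127 bp (SE 1261, limma adjusted p = 0.00243), and its start window from 954 ± 419 to 3270 ± 395 bp (adjusted p = 0.00850). Abcc2, the exporter into bile, and Abcc3 were not called (adjusted p = 0.453 and 0.382). Of 7 regulators, Ahr, the receptor for dioxin-like compounds, was called higher, from 14283 ± 1636 to 17812 ± 832 bp (adjusted p = 0.0161), though not in its start window (adjusted p = 0.328). Nr1i2, Nr1i3, Nfe2l2, Hnf4a, Ppara and Nr1h4 were not called. The share of genes called higher was 21.3%, and these lists hold 3 to 11 genes each.

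Over the 36 libraries, the 5 genes whose percent of window covered moved most like the members' mean were Rassf8 (Spearman rho = 0.878), Cdh2 (0.871), Met (0.868), Thrb (0.861) and Myo1e (0.859), out of 14144 compared. The libraries share preparations, and the same genes correlated with the genome-wide covered length at rho = 0.676 to 0.784. The members' mean did so at 0.676.

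The libraries held 16368 to 70886 peaks, and the read depth behind them is unknown. In the 36 libraries compared the peaks covered 47.8 to 165.1 Mb. All 7 hepatocyte markers had a peak at the start in every preparation, with a summed length of 26944 to 27916 bp in WT and 27804 to 29828 bp in PA. The 5 markers of sinusoidal endothelium summed to 5428 to 10604 bp in WT and 8106 to 11472 bp in PA. Stellate cell markers (5) summed to 798 to 4717 and 893 to 5207 bp, and Kupffer cell markers (5, with Marco at 0) to 0 to 2619 and 0 to 2115 bp. Of the cholangiocyte markers 3 of 5 (Krt19, Epcam and Krt7) had no peak at the start, with sums of 2065 to 3467 and 3180 to 3706 bp, and of the lymphocyte markers 3 of 5 (Cd3e, Cd8a and Nkg7), with sums of up to 286 bp in WT and 0 in PA. In the gene window 1 marker each of hepatocytes (Cps1, limma adjusted p = 0.00394), endothelium (Stab2, 0.000621), stellate cells (Reln, 0.0268) and cholangiocytes (Sox9, 0.00492) was called higher. These were 1 of 7, 1 of 5, 1 of 5 and 1 of 2 markers tested, against 21.3% of all genes. Of the same markers 1, 2, 0 and 1 were lower in PA. None of the Kupffer cell or lymphocyte markers tested was called, with the smallest limma adjusted p at Clec4f (0.290) and Nkg7 (0.287). The part of these marker differences in the results was not tested. In whole tissue, fewer cells of a type and less mark per cell cannot be told apart.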

How the data were processed

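Native ChIP-seq peak lists of 38 mouse liver libraries were used, and 8 of the 46 samples, all inputs, were not analysed here. The deposited files list peak start and end positions (GRCm38, in base pairs) and carry neither counts nor scores. The submitters' processing notes name HOMER 4.10, bedtools 2.31.0, R 4.1.2, SAMtools 1.17, Bowtie2 2.5.1 and cutadapt 3.5, in roles not stated. No source used here gives peak settings, use of the inputs, treatment of multiply mapping reads or depth. A stretch without a peak is therefore unlisted, not shown to be unmarked. No peak was shorter than 500 bp, and 20 chromosome Y rows were removed.

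Groups came from the sample labels. Covered base pairs per gene window (RefSeq, GRCm38.p6) were averaged over antibodies per preparation and fitted with limma 3.58.1 (R 4.3.3, trend, genotype and preparation letter) over the 16082 genes covered in 2 or more libraries. P-values were Benjamini-Hochberg adjusted with a threshold of 0.05. Single antibodies were fitted on genotype, and acyl against acetyl marks on genotype and mark. P-values measure the spread between preparations, or between libraries where several antibodies entered 1 fit unaveraged. That spread may be partly technical. On simulated data with 200 changed genes, the pooled fit recovered 2.5% of 500 bp, 21% of 1000 bp and 63% of 2000 bp changes. In the data this fit called far more genes (3423 higher and 147 lower), which makes the adjusted threshold less strict. These pooled rates therefore do not carry over directly, and the start window was not simulated. The H3K27ac fit recovered 0%, 0% and 1.5%, and the H4K5pr against H4K5ac fit 0%, 0% and 34%, so a gene not called may still differ. Pearson correlations of deviations between same-numbered WT and PA preparations were -0.121 (A) and -0.183 (B), so the numbers were not taken to pair genotypes. Between A and B preparations of the same genotype and number they were 0.388 in WT and 0.083 in PA, which leaves unsettled whether these share a liver. The 2 marks of a pair come from the same preparation, so that block is given beside the result.

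All 10 members are named. Of each pathway list, every gene called in the gene window is named, or else the 2 with the smallest unadjusted p there; of the marker lists, those called. The values of 1 listed gene are not reported here. Members and lists were chosen with earlier results of these data known. Alternatives covered window, scale, normalization, filter, peak width, block, antibodies and leaving out each preparation; those on the start window and the crossed block were added after seeing the data. Tables, promoter alignments and figures used Python 3.11.15, pandas 2.3.3, Biopython 1.88 and matplotlib 3.10.9.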

Additional observations from a re-analysis of the deposited data

Results flagged for a closer look

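Single preparations that stood apart from the other 3 of their genotype were looked for in 40 groups (10 genes, 2 windows, 2 genotypes), where chance gives about 1 in 20, and 5 were found. The gene window of Ugt2b5 held 8228 bp in PA 2A, against 6366 to 6616 bp in the other 3 PA preparations. The gene window of Ugt2b37 held 2539 bp in PA 1A, against 4169 to 4450 bp in the others. The start window of Ugt2b37 also held 2539 bp in PA 1A, against 3673 to 3902 bp. In PA 1A both windows held the same peaks, so these 2 cases are not independent. The start window of Ugt2a3 was full at 5000 bp in WT 2B, against 4479 to 4566 bp in the other WT preparations. In PA 2B the Ugt2a3 start window held 4810 bp, against 5000 bp, the most the window can hold, in the other 3 PA preparations. With 3 values tied at that maximum, any other value in PA 2B would have stood apart, so this last case carries no information.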

How the results depend on the processing

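Over the whole table, the pooled gene window fit called 3423 genes higher and 147 lower. The counts were 647 and 36 in the 5000 bp start window, 891 and 720 under quantile normalization, 947 and 1014 scaled to equal covered length, 1953 and 88 without a filter, 1465 and 83 with A and B averaged, and 490 and 34 with acyl marks only. Without H4K16ac 1834 genes were higher. Preparation A alone gave 0 and 0 (limma, 4428 genes at an unadjusted p under 0.05), and B alone 0 and 0 (2841 genes). Leaving out 1 preparation gave 1861 to 4239 higher and 94 to 137 lower, with the fewest higher without WT 2A and the fewest lower without PA 1A. With numbers as a replicate block the counts were 2555 and 118. Same-numbered WT and PA preparations did not deviate together, and with the numbers crossed the block gave 3702 and 152. In the start window, against 647 and 36, the block gave 67 and 11, the fit without H4K16ac 108 and 19, and A and B averaged 0 and 0 (limma, 3759 genes at an unadjusted p under 0.05). Leaving out 1 preparation there gave 123 to 1087 higher and 14 to 37 lower, with the fewest without PA 1A and the most without PA 2B.

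For the members' gene windows, directions reversed as follows, in bp. With the gene body alone Ugt2b35 was at -23.9 and Ugt2b5 at -254, and in the start window Ugt3a2 at 189. Under quantile normalization Ugt2b1 was at -681, Ugt2b35 at -320, Ugt2b36 at -809, Ugt2b5 at -1208 and Ugt2a3 at -1043, and scaled to equal length at -1156, -527, -1145, -1147 and -1333. With equal numbers of peaks Ugt2b5 was at -220, and with peaks of at least 1000 bp Ugt3a2 at 153. In preparation B alone Ugt2b5 was at -716, Ugt2a3 at -84.6 and Ugt3a2 at 278. Without H4K16ac Ugt2b5 was at -346. With acetyl marks only Ugt2b5 was at -729 and Ugt3a2 at 80.7, and with acyl marks only Ugt2a3 at -98.1, Ugt2b38 at 73.7 and Ugt3a2 at 163. Leaving out 1 preparation gave -426 to 287 for Ugt2b5 and -267 to 155 for Ugt3a2. In the start window, quantile normalization put Ugt3a2 at -187. Scaling put Ugt2b1 at -935, Ugt2b35 at -150, Ugt2b36 at -710, Ugt2b5 at -290, Ugt2a3 at -789 and Ugt3a2 at -757, and B alone put Ugt2b5 at -77.2. The scaled start window fit called 5 members lower, against 1887 of 14647 genes. Among the 5 were Ugt2b37 (limma adjusted p = 0.0140) and Ugt2b36 (0.0464).

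Within single antibodies, a spread shared between antibodies called 425 (H3K9ac), 556 (H3K27ac), 3649 (H4K16ac), 162 (H4K16bu), 1184 (H4K5ac), 499 (H4K5pr), 444 (H4K12ac), 414 (H4K12pr) and 176 (H4K16pr) genes. Libraries of the same preparation counted as independent there. Quantile normalization called 1 for H3K27ac, 6 for H4K16ac, 2 for H4K5ac, 0 for H4K12ac, 16 for H4K12pr and 21 for H4K16pr. The 1 H4K12ac call became 0 as percent of window, with the replicate block and without any 1 library (0 to 0), and the block called 245 genes for H4K16pr. For H4K5pr against H4K5ac, higher and lower counts were 82 and 26 as percent of window, 116 and 49 under quantile normalization, and 317 and 379 with the replicate block. With equal numbers of peaks 77 were lower, and without 1 library 15 to 60 and 7 to 57. For H4K12 they were 0 and 0, 88 and 23, and 225 and 16, with 1 and 0 for equal peak numbers and 0 to 30 and 0 to 0 without 1 library. For H4K16bu they were 47 and 1, 17 and 14, and 0 and 0 with the block, with 206 higher for equal peak numbers. Without 1 library they were 0 to 1012 and 0 to 4, the largest without the H4K16bu library of PA 1A. In that fit 1 member was called higher, against 1012 of 14213 genes. The cause of these changes was not tested. Read depth is unknown, so what it limits could not be measured.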
